A study of Mus musculus with 8 samples.

Results

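The genes described here encode proteins of the neuroendocrine secretory granule. They were chosen by symbol, without a cutoff on measured values but with earlier results of these data known. The granins are chromogranin A (CHGA), chromogranin B (CHGB), secretogranin 2 (SCG2), secretogranin 3 (SCG3), 7B2 (SCG5) and VGF. The prohormone processing enzymes are PCSK1, PCSK2, carboxypeptidase E (CPE) and peptidylglycine alpha-amidating monooxygenase (PAM). Of these 10 genes, 9 were listed among the 16974 genes of the series, and 8 had a mean FPKM of at least 1, as did 11311 of the 15894 genes listed at all 4 time points. PCSK1 was not analysed here, and Pcsk2 stayed below an FPKM of 1 in all 8 libraries.

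The cells were N2A (Neuro 2A), a mouse neuroblastoma line, and the drug, HU210, activates the cannabinoid receptor CB1R. All cells were first kept for 16 h in serum-free medium with albumin, and then received either 2 µM HU210 in DMSO or DMSO without drug for 2, 4, 6 or 8 h. Each of the 8 conditions is 1 mRNA library pooled from 2 to 3 independent experiments, so the HU210 group has 4 libraries and the DMSO group has 4, each at a different hour, and a difference at a single hour has no replicate check. The values are FPKM, in which fragments are scaled to transcript length and library, and the number of reads behind each value is not given. In libraries of whole cultures, fewer cells that express a gene and less RNA per cell cannot be told apart.

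Granins are acidic proteins of the regulated secretory pathway that aggregate in the trans-Golgi network, take part in granule formation and are cut into peptides. Within the granule, the convertases PCSK1 and PCSK2 cut prohormones after pairs of basic residues, carboxypeptidase E trims the exposed basic residues, and PAM amidates the C-terminus of many peptides. Several granin genes carry a cAMP response element near their start, and CB1R is known to couple to G proteins that lower cAMP.

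The promoters of Scg2, Chgb and Chga are shown because Scg2 and Chgb hold a full cAMP response element and Chga a partial one, and because the Scg2 and Chgb mRNAs lay on opposite sides of DMSO at 4 h, as described further on. Each line gives the 120 bases before the transcription start from RefSeq, 5′ to 3′ on the gene's strand, in lower case, with TGACGTCA or, in Chga, TGACG in capitals.
Scg2 promoter, GRCm38.p6 chr1:79440027-79440146, - strand: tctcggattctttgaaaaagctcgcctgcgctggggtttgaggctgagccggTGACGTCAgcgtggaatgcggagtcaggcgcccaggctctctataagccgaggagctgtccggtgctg
Chgb promoter, GRCm38.p6 chr2:132781522-132781641, + strand: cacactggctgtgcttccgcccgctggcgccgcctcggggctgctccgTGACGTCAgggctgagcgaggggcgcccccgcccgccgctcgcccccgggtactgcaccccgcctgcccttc
Chga promoter, GRCm38.p6 chr12:102554821-102554940, + strand: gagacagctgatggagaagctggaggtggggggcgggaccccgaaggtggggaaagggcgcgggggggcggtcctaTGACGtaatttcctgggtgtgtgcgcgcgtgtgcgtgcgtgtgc

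RefSeq promoters on GRCm38.p6 were matched for 8 of the 10 genes, and those of Vgf and Cpe were not matched. In the 250 bases before the start, searched on both strands, the palindrome TGACGTCA was present in 3 genes. Its first base lay 68 bases before the start in Scg2, 72 in Chgb and 78 in Pcsk1. Among all 32851 RefSeq promoters, 1.55% held it. The partial site TGACG, which is contained in the palindrome, was found on either strand in 7 of the 8 genes, against 17.8% of all promoters. Outside the palindrome it began 44 bases before the start in Chga, 30 in Scg3, 175 in Scg5, 34 on the other strand in Pcsk2, and 50 in Pcsk1. The 2 Pam promoters held neither sequence. These are matches of letters, and no binding was measured.

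The granins were among the more abundant mRNAs of these cells, and the enzymes were lower (see the plot of levels in the 8 libraries). Over all 8 libraries, which differ in hour and treatment, the FPKM was 196 ± 33.2 for Vgf (SD, n = 8), 123 ± 21.1 for Chgb, 104 ± 12.7 for Scg2, 70.9 ± 8.95 for Scg3, 63.6 ± 3.10 for Scg5 and 58.9 ± 5.50 for Chga. The enzymes were at 29.8 ± 4.50 for Cpe, 16.9 ± 3.80 for Pam and 0.719 ± 0.0908 for Pcsk2. Vgf exceeded 97.9% of the 15894 genes listed at all hours, Chga 91.7%, Pam 71.2% and Pcsk2 26.5%. Most neighbours in this order kept it in nearly all libraries. Chga was above Cpe, Cpe above Pam and Pam above Pcsk2 in 8 of 8, and the other neighbours kept their order in 7 of 8, but Chgb was above Scg2 in only 5 of 8, with a mean log2 difference in level of 0.23 ± 0.32 (SD). The log2 differences in level between Scg3 and Scg5, 0.15 ± 0.14, and between Scg5 and Chga, 0.11 ± 0.11, were as large as their own spread.

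**Figure D1:**
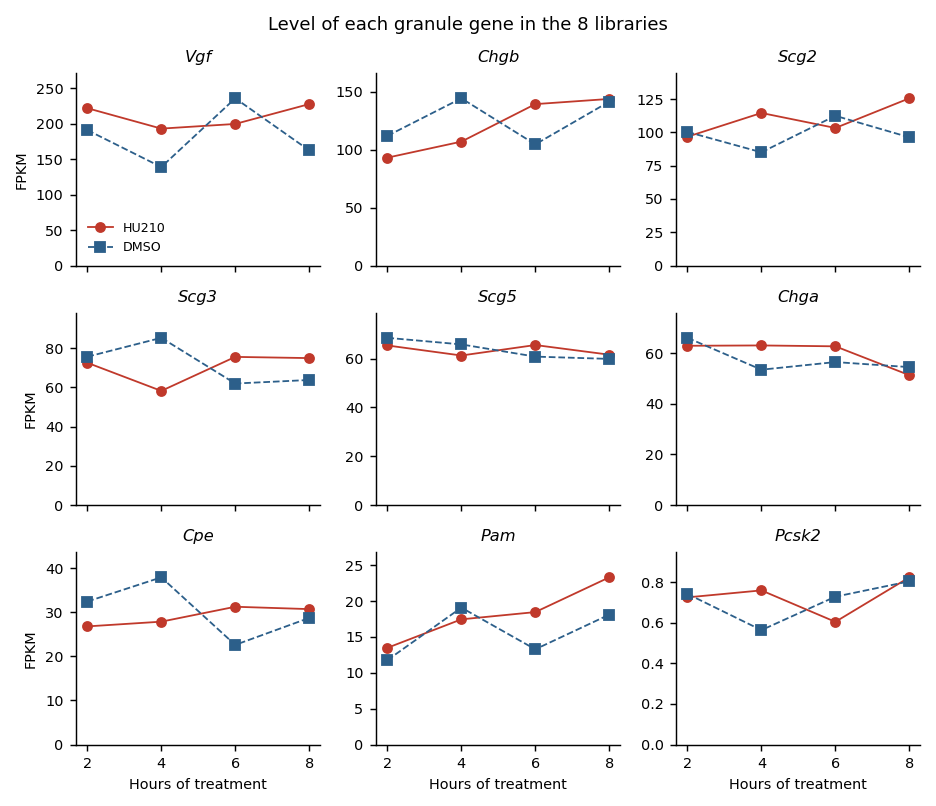
FPKM (y axis, linear from 0) of the 9 listed granule genes against hours of treatment (x axis), 1 point per library, HU210 in red circles and DMSO in blue squares. In every panel the ranges of the 4 HU210 and the 4 DMSO libraries overlap.

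The cells carried most of the chosen markers of a sympathetic neuroblastoma, though some were low. Of 15 such markers, 12 had a mean FPKM of at least 1, and their summed FPKM was 808 to 913 with HU210 and 820 to 880 with DMSO. Hand2 and Stmn2 were among them, whereas the neurofilament genes Nefl and Nefm were at or near 0. Uchl1, with a mean FPKM of 440, was the largest part of that sum. Th and Dbh had mean FPKM of only 2.00 and 1.14, below the glial marker Mbp at 4.33. Summed markers of other cell types were between 2.18 and 2.45 for fibroblasts, 5.68 and 6.94 for glia, 0.219 and 0.453 for immune cells and 1.51 and 2.13 for endothelium over the 8 libraries. These sums rest on 3 listed genes each for fibroblasts, glia and endothelium, and on 2 for immune cells. Between 11328 and 11444 genes per library had an FPKM of at least 1.

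To ask what HU210 did to these mRNAs at each hour, the log2 change, log2[(FPKM with HU210 + 1)/(FPKM with DMSO + 1)], was taken within each hour. A change of at least 1.3-fold is used as a mark of size, among genes with a mean FPKM of at least 1 in the pair, and carries no test. At 2 h none of the 8 granule genes was past it, where 1.66% of 11418 genes were higher and 4.02% lower. At 4 h, 2 of 8 were higher (8.97% of 11387 genes) and 3 of 8 lower (20.0%). At 6 h, 3 of 8 were higher (6.54% of 11448 genes) and 0 lower (1.82%). At 8 h, 2 of 8 were higher (4.53% of 11401 genes) and 0 lower (1.48%). None reached 1.5-fold at any hour. The median log2 change of the 8 genes was -0.06, -0.11, 0.22 and 0.16 over the successive hours, beside -0.05, -0.08, 0.06 and 0.04 for all genes.

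Vgf and Scg2, the granins whose RNAs are best known as responsive to growth factors and cAMP, had log2 changes of the same sign at 4, 6 and 8 h but not at 2 h. Vgf (ENSMUSG00000037428, mm9 chr5:137506165-137509221) was at an FPKM of 222, 193, 199.8 and 228 with HU210 at the 4 successive hours, and at 191, 139, 236 and 163 with DMSO. The HU210 libraries stayed close together, while DMSO held both the lowest and the highest value, at 4 h and 6 h. The log2 change of Vgf was therefore 0.22, 0.47, -0.24 and 0.48, and it was past 1.3-fold at 4 h and 8 h. Scg2 (ENSMUSG00000050711, mm9 chr1:79431244-79436665) was at 96.7, 114.6, 103 and 125.6 with HU210, and at 100.3, 85.0, 112 and 96.3 with DMSO. As with Vgf, the lowest library was DMSO at 4 h and HU210 lay above DMSO at 4 h and 8 h and below it at 6 h. The log2 changes of Scg2 were -0.05, 0.43, -0.12 and 0.38, the last of them at 8 h just past the 1.3-fold mark at 1.301-fold.

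Chgb, Cpe and Scg3 had log2 changes of the opposite sign to those of Vgf and Scg2 at 4 h and 6 h, but not at 8 h. Chgb (ENSMUSG00000027350, mm9 chr2:132607014-132620815) was at 93.1, 107, 139 and 144 with HU210 and at 112, 144, 104.6 and 141 with DMSO. HU210 was below DMSO at 2 h and 4 h, above it at 6 h and level with it at 8 h, with log2 changes of -0.26, -0.43, 0.41 and 0.02. Cpe (ENSMUSG00000037852, mm9 chr8:67071355-67171837) was at 26.8, 27.9, 31.3 and 30.7 with HU210 and at 32.5, 37.9, 22.6 and 28.7 with DMSO. Both the highest and the lowest Cpe library were again DMSO, at 4 h and 6 h, and the log2 changes were -0.27, -0.43, 0.45 and 0.09. Scg3 (ENSMUSG00000032181, mm9 chr9:75491071-75531803), which encodes a granin that binds chromogranin A, was at 72.5, 58.2, 75.5 and 74.9 with HU210 and at 75.6, 85.2, 61.9 and 63.7 with DMSO. At 4 h its DMSO library was the highest and its HU210 library the lowest of the 8, and its log2 change of -0.54 there was the largest in size of any granule gene, beside -0.06 at 2 h, 0.28 at 6 h and 0.23 at 8 h.

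Pam, like Chgb, had its lowest HU210 library at 2 h and its highest at 8 h. It (ENSMUSG00000026335, mm9 chr1:99691691-99992223) was at 13.5, 17.5, 18.5 and 23.3 with HU210 and at 11.8, 19.1, 13.3 and 18.1 with DMSO. The highest library was HU210 at 8 h, at 1.98 times the lowest, DMSO at 2 h, and the log2 change was 0.18, -0.12, 0.45 and 0.35. The remaining genes moved little. Scg5, whose product 7B2 is the chaperone of PCSK2, ranged from 59.9 to 68.5 over the 8 libraries, with log2 changes between -0.10 and 0.11. Chga ranged from 51.4 to 66.1, with log2 changes between -0.09 and 0.23. Pcsk2 ranged from 0.564 to 0.824, and an overlapping gene on the other strand, Pcsk2os1, had an FPKM of 0.501 to 1.98. Whether counting used strand is not given in the sources used here, so reads of this pair cannot be told apart.

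**Figure D2:**
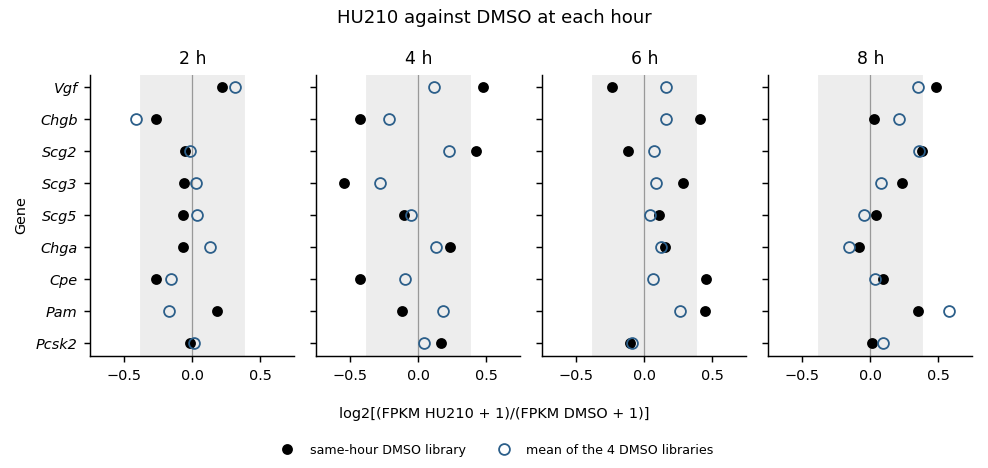
Log2 change of each granule gene (y axis, ordered by mean level) at each hour, against the DMSO library of the same hour (filled) or the mean log2 level of all DMSO libraries (open), with changes under 1.3-fold shaded. Against the same hour, Scg3, Cpe and Chgb lie left of the band and Vgf and Scg2 right of it at 4 h, and against the mean DMSO level no gene is outside the band at 4 h or 6 h.

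As in most genes tested, the spread among DMSO libraries exceeded the difference from HU210 in most of these genes. In 6 of the 8 genes the log2 range of the 4 DMSO libraries was larger than the largest same-hour log2 change, as it was in 55.6% of 11311 genes. For Vgf the DMSO range was 0.76 and for Cpe 0.72, against largest log2 changes of 0.48 and 0.45. Scg2 and Scg3 were the exceptions, with DMSO ranges of 0.40 and 0.45 and largest log2 changes of 0.43 and 0.54, both at 4 h. The log2 range of the HU210 libraries was larger than that of the DMSO libraries for Chgb (0.62 against 0.46) and Pam (0.75 against 0.65), and smaller for the rest. With the mean of the 4 DMSO libraries as the reference, 0 genes were past 1.3-fold at 4 h and at 6 h, Chgb was lower at 2 h (log2 change -0.41), and Pam was higher at 8 h (0.58). That reference mixes hours, so change with time and change with HU210 cannot be told apart in these values. Against DMSO of the same hour, Chgb at 2 h was at -0.26 and Pam at 8 h at 0.35.

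At 4 h the log2 change followed the GC content of the transcript across all genes, with a Spearman correlation of 0.532 over 10563 genes, and at 6 h the relation was opposite, at -0.296 over 10614 genes. At 2 h and 8 h it was 0.166 and -0.152. Genes share their libraries and are not independent replicates. The transcripts of Scg3 and Scg2 both had 46.6% GC, those of Cpe 50.1%, Chgb 53.9% and Vgf 64.8%. At 4 h the median log2 change of genes with 44% to 48% GC was -0.25, so Scg3 (-0.54) lay below genes of its own composition and Scg2 (0.43) above them. Once a smooth trend on GC content and transcript length had been subtracted, the 4 h log2 change was 0.64 for Scg2, 0.33 for Vgf, -0.33 for Scg3, -0.35 for Cpe and -0.47 for Chgb, which leaves Scg2 and Chgb past 1.3-fold. At 6 h the values for Chgb, Cpe and Pam became 0.37, 0.36 and 0.36, just inside the mark, and at 8 h Vgf stayed past it at 0.41 while Scg2 did not, at 0.30. Scg2 and Chgb, the listed genes with the full TGACGTCA in the promoters shown earlier, were on opposite sides of DMSO at 4 h before and after the trend was removed. Before its removal they were also on opposite sides at 6 h, but on the same side at 2 h and at 8 h. After its removal Scg2 and Chgb were at 0.04 and -0.23 at 2 h, -0.26 and 0.37 at 6 h, and 0.30 and -0.01 at 8 h. These signs were opposite at each hour, though Scg2 at 2 h and Chgb at 8 h were near 0. Each hour is 1 library per treatment, and a role of this sequence in the changes was not tested.

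**Figure D3:**
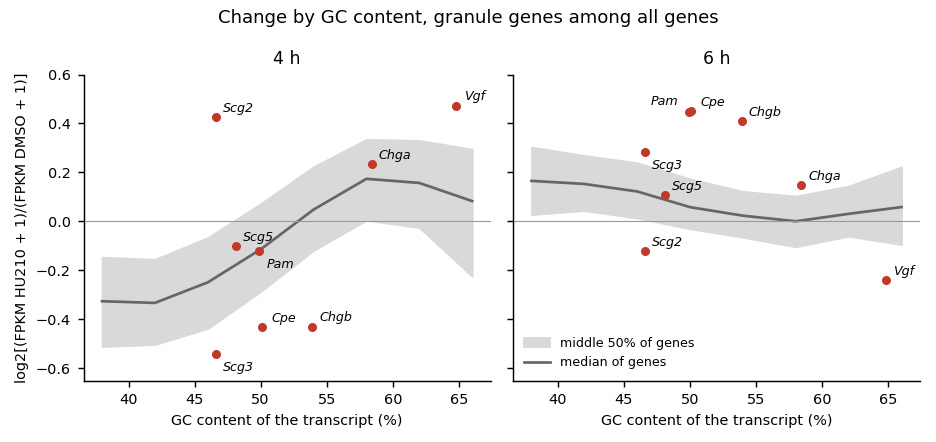
Log2 change at 4 h and 6 h (y axis) against the GC content of the transcript in percent (x axis), with the median and middle 50% of all genes in bins of GC content, the last of which holds all genes from 64% up, and the 8 granule genes as points. At 4 h the median of all genes runs from -0.33 to 0.17, with Scg2 above it and Scg3, Cpe and Chgb below it.

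Tests over the 8 libraries were made with limma on log2(FPKM + 1) across 11311 genes. For HU210 against DMSO over the 4 hours, with the hour as a block, no gene had an adjusted p under 0.05 (0% called), and 146 genes had an unadjusted p under 0.05. Vgf was 0.23 ± 0.14 higher with HU210 (log2 difference ± SE, 95% interval -0.10 to 0.57), higher at 3 of 4 hours. Pam was 0.21 ± 0.11 higher (-0.06 to 0.48), also at 3 of 4 hours, and Scg2 0.16 ± 0.12 higher (-0.14 to 0.45), at 2 of 4. The adjusted p was 1.0 for each. Leaving out 1 hour at a time moved these estimates between 0.15 and 0.39 for Vgf, 0.14 and 0.33 for Pam, and 0.07 and 0.25 for Scg2. The other estimates lay between -0.06 for Chgb and 0.06 for Chga, and the tightest interval was that of Scg5, -0.19 to 0.18. For 0 of the 8 genes did the HU210 and DMSO libraries separate without overlap, as 0.371% of genes did with HU210 higher and 0.371% with HU210 lower.

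A linear change per hour in both treatments was estimated with limma with treatment, and no hour block, in the fit. No gene was called (0% of 11311), and 1323 had an unadjusted p under 0.05. The largest slopes were 0.09 ± 0.03 log2 units per hour for Pam (adjusted p = 0.344) and 0.07 ± 0.03 for Chgb (adjusted p = 0.421), and the most negative was -0.04 ± 0.02 for Chga (adjusted p = 0.444). The hour and the preparation of that hour's libraries cannot be told apart. The fit treats the HU210 and DMSO libraries of an hour as independent, so the SE can be too small where they deviate together.

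The difference between HU210 and DMSO at 6 h and 8 h was then set against that at 2 h and 4 h. The late difference was above the early one by 0.62 ± 0.18 log2 units for Cpe (95% interval 0.18 to 1.06, adjusted p = 0.238), 0.56 ± 0.18 for Chgb (adjusted p = 0.254), 0.56 ± 0.20 for Scg3 (adjusted p = 0.266) and 0.37 ± 0.17 for Pam (adjusted p = 0.320). No gene was called (0%), and 1915 genes had an unadjusted p under 0.05, of which 1656 were positive. The median estimate over all genes was 0.12. After the libraries were centred on their medians, the estimate was 0.47 for Cpe, 0.42 for Chgb, 0.41 for Scg3 and 0.22 for Pam. Without the trend on GC content and length it was 0.47, 0.53, 0.30 and 0.21 for the same genes. Vgf, at -0.22 (-0.86 to 0.42), Chga and Scg2 had negative estimates, and Scg5 was at 0.16. Leaving out the 2 h libraries, which leaves 1 residual degree of freedom, called 1158 genes, Scg3 among them (0.80, adjusted p = 0.0428), against 0 to 4 called without another hour. The adjusted p of Scg3 over all alternatives ran from 0.0428 to 0.974.

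**Figure D4:**
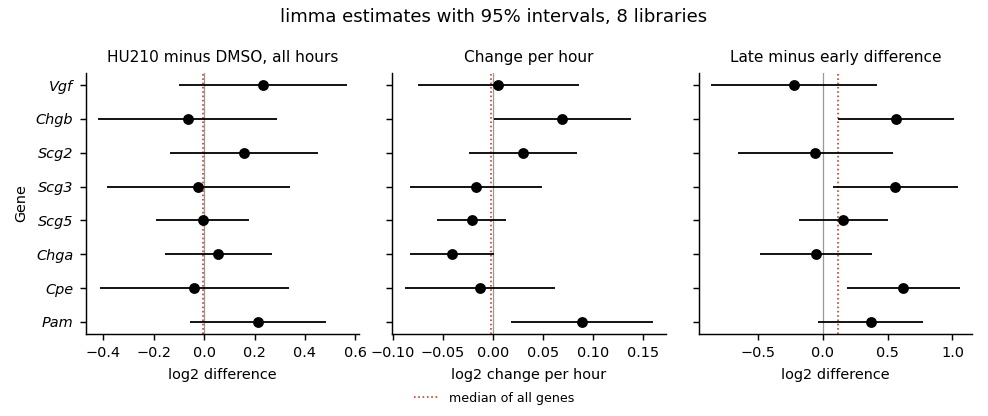
limma estimates (points) with 95% intervals (bars) for the 8 granule genes (y axis) from 8 libraries, in log2 units for HU210 minus DMSO, per hour for the slope, and for the late minus early difference, with the median of all genes dotted. Cpe, Chgb and Scg3 lie to the right in the last panel, and the intervals of all 8 genes cross 0 in the first.

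Across the 8 libraries the granule genes did not move as one group. The closest pairs were Cpe and Scg3 (Pearson r = 0.784 over 8 libraries), Chgb and Pam (0.780) and Scg2 and Vgf (0.760), and the most opposed were Cpe and Vgf (-0.719). The genes most like Vgf, the most abundant, among 11310 others were Vasp (0.986), Map3k10 (0.977), 9130221H12Rik (0.966), Lyrm1 (0.961) and Dnajc17 (0.958). These points share hours, libraries and base composition, and the values are descriptions.

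Other proteins of the granule were mostly within 1.3-fold. Of 28 listed by function, 19 had a mean FPKM of at least 1 at 4 h, of which 1 was past 1.3-fold higher and 3 lower, beside the 8.97% and 20.0% of all genes. Ptprn, the membrane protein IA-2 of dense-core granules, was at 34.7 with HU210 and 26.1 with DMSO at 4 h (log2 change 0.40, or 0.24 without the GC and length trend and 0.21 against the mean DMSO level), and Rab2a, a GTPase of granule maturation, at 41.7 and 66.3 (-0.66). At 6 h Rab2a was at 55.0 and 38.7 (0.50). The largest change of this list was in Slc18a1, the vesicular monoamine transporter VMAT1, at 4.03 with HU210 and 1.47 with DMSO at 6 h (log2 change 1.03), and at 1.04 and 1.73 at 2 h (-0.42). The inhibitor of PCSK1, Pcsk1n, ranged from 49.9 to 70.8 and was not past 1.3-fold at any hour, and Cadps was below 0.02 throughout. At 2 h Slc18a1 was the single gene of 19 past the mark, and was lower (4.02% of all genes). At 6 h Slc18a1 and Rab2a were the 2 of 19 past it, both higher (6.54% of all genes). At 8 h 0 of 18 were past it, where 4.53% of all genes were higher and 1.48% lower. The shares at 4 h were thus near or below those of all genes.

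Few peptide precursors, the cargo of these granules, were measured. Of 36 named, 4 had a mean FPKM of at least 1 in the pair at 4 h and at 8 h, and 2 of them were past 1.3-fold higher at each of these hours (8.97% and 4.53% of all genes). One of the 2 at each hour was Nmb, which entered these pairs through its HU210 value alone, so the counts are in part set by the filter. Nmb, the precursor of neuromedin B, was at 0.680, 1.56, 0.743 and 2.97 with HU210 and at 0.583, 0.771, 0.798 and 0.586 with DMSO. The HU210 libraries at 4 h and 8 h stood above the other 6, with log2 changes of 0.53 and 1.32, and the level at 8 h was the highest of the 8. Pomc, the precursor of ACTH, was at 2.90 and 1.86 at 4 h (0.45, or 0.27 without the trend on GC content and length and 0.09 against the mean DMSO level), and Cartpt at 8.69 and 6.19 at 8 h (0.43). Npy ranged from 8.28 to 14.2 and was not past the mark.

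Of 17 other convertases and carboxypeptidases, 10 were expressed at this level, with 1 higher and 4 lower at 4 h (8.97% and 20.0% of all genes), 1 higher at 6 h (6.54%) and 1 higher at 8 h (4.53%). Cpd, a carboxypeptidase of the trans-Golgi network with the same specificity as Cpe, was at 7.27 with HU210 and 14.8 with DMSO at 4 h (log2 change -0.94) and at 12.9 and 9.30 at 6 h (0.43). Furin, the convertase of the constitutive pathway, was between 19.3 and 26.4 and was not past 1.3-fold at any hour. Pcsk4 was the gene higher at 8 h, at 2.34 and 1.53, as at 4 h. Cpm, Ctsl and Nrd1 were the others lower at 4 h, with log2 changes of -0.44, -0.39 and -0.47. Without the trend on GC content and length, the 4 h values were -0.19, -0.16 and -0.23 for these genes, 0.28 for Pcsk4 and -0.64 for Cpd. Against the mean DMSO level they were -0.19, -0.14, -0.24, 0.02 and -0.48 in the same order.

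Among 23 regulators of neuroendocrine transcription, 20 were expressed at this level, with 0 higher and 8 lower at 4 h (8.97% and 20.0% of all genes), 3 higher at 6 h (6.54%) and 1 lower at 8 h (1.48%). The median log2 change of this list was -0.22 at 4 h and 0.11 at 6 h, beside -0.08 and 0.06 for all genes. Rest, the repressor that keeps many granule genes silent in other cells, was at 3.31 with HU210 and 4.96 with DMSO at 4 h (-0.47), where its corepressor Rcor1 was at 6.70 and 10.9 (-0.62). The sympathetic factors Phox2a and Hand2 were lower at 4 h (-0.71 and -0.52) and higher at 6 h (0.40 and 0.53), as were Cpe and Chgb. Creb1, which binds the cAMP response element, was lower at 4 h (-0.49) and at 8 h (-0.53), the latter at 12.2 with HU210 and 18.0 with DMSO. Without the trend on GC content and length, the 4 h log2 change was -0.06 for Creb1, -0.22 for Rest, -0.88 for Phox2a and -0.70 for Hand2. At 4 h the 4 lists of related genes held 19, 4, 10 and 20 genes at this level, in the order described. Of these genes 19 were past 1.3-fold, 8 of them without the trend and 4 against the mean DMSO level. At 6 h these counts were 6, 3 and 1, and at 8 h they were 4, 3 and 2. No share of all genes is given for counts without the trend or against the mean DMSO level, so they only describe these genes.

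**Figure D5:**
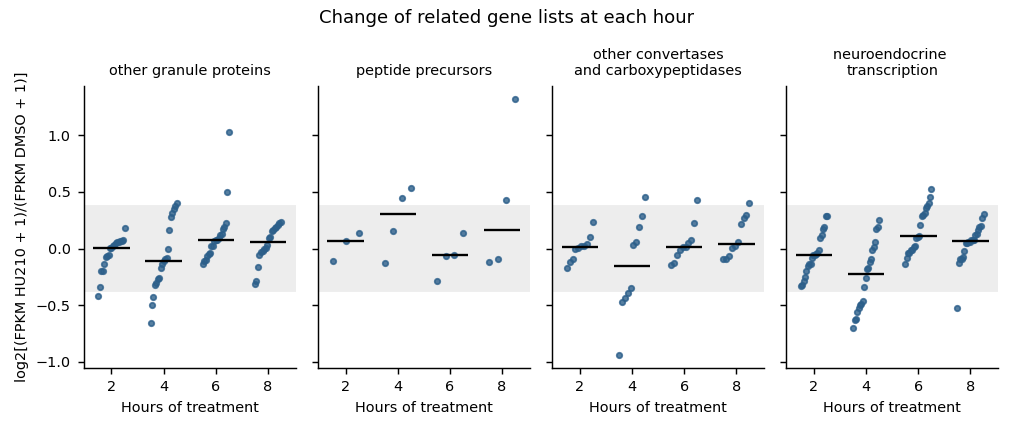
Log2 change of each gene with a mean FPKM of at least 1 in the pair (points, y axis) at each hour of treatment (x axis) in 4 lists of related genes, with the median of the list as a bar and changes under 1.3-fold shaded. The highest points are Nmb at 8 h and Slc18a1 at 6 h, and the lowest is Cpd at 4 h.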

How the data were processed

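Messenger RNA of N2A cells was sequenced in 8 libraries, 4 with HU210 and 4 with DMSO. The submitters' processing notes name TopHat2 2.0.8, SAMtools 0.1.7, Bowtie2 2.1.0, Cufflinks and mm9. The authors computed FPKM with Cufflinks and Cuffdiff, with upper-quartile normalization, bias correction and weighting of multiply mapped reads, and deposited FPKM + 1, from which 1 was subtracted. Fragment bias correction and upper-quartile scaling act on each library, so differences between libraries in composition can remain. Columns of the authors' log2 ratios, p-values, q-values and calls, and a second table of called genes, were not used.

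Groups and hours come from the labels, with hour as the block. Deviations of same-hour libraries from their group means correlated at 0.437, -0.386, 0.075 and 0.272 at 2, 4, 6 and 8 h over 11311 genes. Genes listed at all hours with a mean FPKM of at least 1 entered limma 3.58.1 (R 4.3.3) on log2(FPKM + 1), with Benjamini-Hochberg adjustment over all of them, and its p-values measure only the spread between these libraries. Python 3.11.15 was used otherwise. The step was tested on simulated data. A pseudocount of 1 understates changes of low genes. Transcript length and GC content were available for 93.6% of the genes tested, from GENCODE vM1 on mm9, and the trend on both was taken from a loess fit (span 0.3, degree 1).

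The genes and lists were chosen with earlier results of these data known. The genes named are the 10 of the granule, listed genes past 1.3-fold at 1 or more hours, the defining genes of a list, and the 5 most like the most abundant granule gene. Npy and the marker genes fall outside that rule and were chosen after their values were seen. One gene of a list is not reported here by name. The alternatives were a pseudocount of 0.1, no filter or a mean FPKM of 5, a 1.5-fold mark, centring on the median, the mean DMSO level as reference, removal of the trend on GC content and length, an intensity trend of the prior variance, no hour block, and leaving out each library or hour. The counts of listed genes under other references or without the trend were added after seeing the data.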

Additional observations from a re-analysis of the deposited data

Results flagged for a closer look

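Among the 18 groups of 4 libraries examined, 9 genes in each of 2 treatments, 1 held a library far from the rest. Chga with HU210 was at 63.0, 63.1 and 62.8 at 2, 4 and 6 h and at 51.4 at 8 h, and the gap of the 8 h library was 0.970 of the whole range, above Dixon's 95% critical value for 4 libraries. Chance alone gives about 1 in 20 such groups. The 4 libraries are different hours, and Chga with DMSO was at 54.5 at 8 h, inside its range of 53.5 to 66.1.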

How the results depend on the processing

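At single hours the counts of granule genes past 1.3-fold were 0, 5, 3 and 2 at 2, 4, 6 and 8 h. A 1.5-fold mark gave 0 at the last 3 hours. The mean DMSO level as reference gave 1, 0, 0 and 1 in the same order. Centring gave 3 at 4 h (2 higher, 1 lower), 2 at 6 h and 1 at 8 h. Removing the trend on GC content and length gave 2 at 4 h (1 higher, 1 lower), 0 at 6 h and 1 at 8 h. The causes were not tested, and no share of all genes is given for these alternatives. A pseudocount of 0.1 and the inclusion of Pcsk2 left these counts within 1.5 times.

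The limma tests called 0 genes under every alternative other than leaving out libraries, which gave 0 to 1 for HU210 against DMSO, 0 to 1 for the slope and 0 to 1158 for the late against the early difference. Leaving out 1 library of an hour from a fit with the hour block is the same as leaving out both. Without the block on the hour (no pairing), HU210 against DMSO also called 0 genes. Removing the trend turned the sign for Scg5 in HU210 against DMSO (0.0138) and in the late minus early difference (-0.0265), and for Chga in the latter (0.000261). Leaving out libraries also turned signs. HU210 minus DMSO ran from -0.0020 to 0.10 for Chga, -0.22 to 0.057 for Chgb, -0.20 to 0.0927 for Cpe, -0.12 to 0.15 for Scg3 and -0.0426 to 0.0269 for Scg5. The slope ran from -0.0361 to 0.00043 for Cpe and -0.0113 to 0.0576 for Vgf. The late minus early difference ran from -0.20 to 0.10 for Chga, -0.31 to 0.19 for Scg2, -0.58 to 0.14 for Vgf and 0.32 to 0.80 for Scg3. Reads per gene are not given, and the read totals per sample that the paper reports were not used. The precision of single FPKM values was therefore not assessed.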
